A study of Glycine max with 8 samples.

Results

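Leaves of soybean seedlings (Glycine max L. cv. Daepoong) that had passed through a whole course of drought, re-watering and a second drought were compared with leaves of well-watered seedlings that had not gone through drought. The comparison rested on the arrays labelled WT1 and DR2, which are 4 of the 8 arrays of the series, 2 per condition, taken by their labels alone. All seedlings were grown for 7 days in trays. WT1 leaves came from plants that stayed watered, whereas DR2 leaves came from plants that had lost their watering tray for 4 days (DR1), had been watered again for 1 day (WT2) and had then lost water for another 4 days. The DR1 sample labels give the first drought in hours, and the treatment protocol and the study's methods give 4 days, the duration used here. Primary leaves of several plants were pooled for each sample, and the methods describe the replicates as independent experiments. WT1 leaves were collected with the DR1 leaves, so DR2 leaves were also older, and leaf age and drought cannot be told apart in this comparison.

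When soil dries, the hormone abscisic acid accumulates in leaves, closes stomata and switches on genes whose products protect proteins and membranes against water loss. Abscisic acid bound to its receptors blocks a group of protein phosphatases 2C, which releases kinases that activate transcription factors of the bZIP family, while NAC and AP2/ERF factors carry further parts of the response. Growth, cell expansion and photosynthesis are known to slow under the same conditions.

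The 8 arrays carry probes for soybean transcripts, and each transcript is named by its locus with a number for the transcript. The deposited table gives 60386 transcripts, each with 1 normalized intensity per array, and 54851 of them were tested because in some condition both arrays had a probe of theirs well above background. Between 55.2% and 65.2% of the probes were well above background on an array, with 55.2% and 57.3% on the DR2 arrays and 61.4% and 62.1% on the WT1 arrays, and 0 spots were saturated. Replicate arrays correlated at 0.989 for WT1 and 0.969 for DR2 across transcripts, which describes their spread and carries no test. WT1 shared a slide with DR1, and DR2 shared another with WT2, so slide and condition cannot be told apart between DR2 and WT1, and DR2 was therefore also set against WT2 on its own slide. Of the WT2 arrays, replicate 1 held drought-induced transcripts far above replicate 2. The spread of these 2 arrays enlarges the standard errors (SE) of several rises, because 1 SE was shared over all 4 conditions.

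Leaf markers were examined beside the leaf label. The 16 tested transcripts for light-harvesting proteins and the small subunit of RuBisCO were all well above background on both WT1 arrays, where their summed intensity was 1262484 and 1242282. On the DR2 arrays the sum was 11347 and 13902, with 12 and 11 of the 16 above background. Oleosins, proteins of the oil bodies of seeds that drought can also raise in leaves, went the other way, with 0 of 6 above background on either WT1 array and 6 of 6 on both DR2 arrays. Cupins, the other seed-type family examined, had overlapping sums, 82550 and 109191 at WT1 and 135016 and 74253 at DR2. The study had listed at least 12 of the 13 light-harvesting, all 3 RuBisCO and all 8 oil body transcripts for change between DR1 and WT1. That choice shares the WT1 arrays, so the shifts of these markers are not independent evidence of direction. In pooled leaf tissue, fewer cells of a type and less RNA per cell cannot be told apart.

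Levels differed between DR2 and WT1 over much of the leaf transcriptome, with more transcripts lower than higher. A transcript was called when the difference of its means was over 4-fold (a log2 difference of 2) and its Benjamini-Hochberg adjusted p in limma was below 0.05. By this rule 6975 transcripts of 5987 loci were higher at DR2 (12.7% of those tested) and 8552 transcripts of 7518 loci were lower (15.6%). The median difference was 2.98 on the log2 scale among the higher and -3.06 among the lower, against -0.03 over all transcripts tested. The normalized arrays have medians between 226.1 and 233.5, so a value near 0 over all transcripts follows largely from the normalization. More than 16-fold differences were found in 1835 of the higher and 2333 of the lower transcripts, and more than 64-fold in 544 and 527. Both pairs of arrays with equal replicate number exceeded 4-fold in 5598 of the 6975 and in 7019 of the 8552. The p-values measure only the spread between arrays, and 2 arrays per condition limit that estimate.

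**Figure D1:**
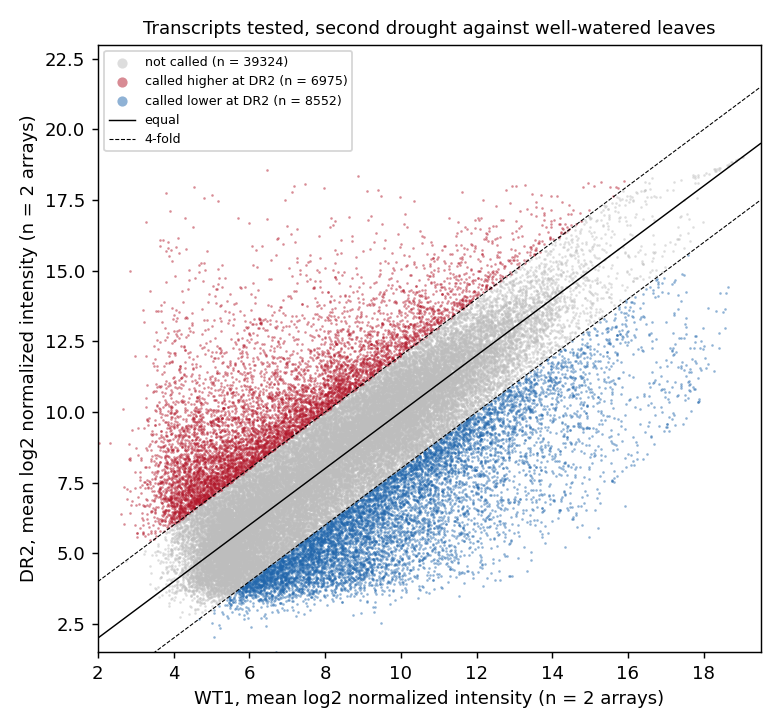
Mean log2 normalized intensity of each transcript tested at WT1 (horizontal axis) and at DR2 (vertical axis), over 2 arrays each. Red points are the 6975 transcripts called higher at DR2, blue points the 8552 called lower and grey points the rest, with a solid line at equality and dashed lines at 4-fold.

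Part of this difference lay in transcripts that were measured in 1 condition only. At WT1 49075 transcripts were detected on both arrays, and at DR2 43485. There were 5324 transcripts detected on both WT1 arrays and on neither DR2 array, of which 2571 were called lower, and 2103 with the opposite pattern, of which 1693 were called higher. Where every probe of a transcript stayed near background on both arrays of the dimmer condition, the difference is only bounded. Such transcripts made up 1730 of the higher and 2593 of the lower calls, and 1347 and 1301 of these were still above 4-fold when the dim value was raised to the lowest table value measured well above background on that array. With these transcripts at their bounds, the medians were 2.84 and -2.80. In the text, a fold written as "at least" is such a bound, taken from means of log2 values.

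The same transcripts had other levels in the conditions between. Those called higher at DR2 lay at a median of 1.04 above WT1 at DR1 and 0.13 above WT1 at WT2, on the log2 scale, and those called lower lay at -1.20 and -0.22. These values share the WT1 arrays with the main comparison. Against WT2, on the same slide, the medians were 2.94 and -2.98. On that slide 7458 transcripts (13.6%) were called higher at DR2 than at WT2 and 8956 (16.3%) lower. WT2 itself differed from WT1, across slides, in 226 transcripts called higher (0.412%) and 29 called lower (0.0529%). The spread between the WT2 arrays limits these calls, so the counts do not measure recovery. Glyma.09G185500-1, for example, lay 6.24 above WT1 at WT2 and was not called (limma adjusted p = 0.15).

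The largest rises came from protective, detoxifying and inhibitor proteins and from transcripts without annotation. Glyma.03G144400-1, which the study annotates as a group 1 late embryogenesis abundant (LEA) protein, a kind that accumulates in drying seeds and shields proteins, had normalized intensities of 24.4 and 42.7 on the WT1 arrays and 209188 and 208159 on the DR2 arrays. Both DR2 arrays lay far above both WT1 arrays, and the difference was 12.66 on the log2 scale. Its SE was 1.81 (adjusted p = 0.00039) in the fit of 8 arrays, in which WT2 held 8535 and 57.3, and 0.34 (adjusted p = 1.5e-05) in a fit of the WT1 and DR2 arrays alone. Glyma.08G235400-1, a Kunitz inhibitor, a class of legume protein that blocks digestive proteases, went from 39.1 and 33.8 to 171241 and 189079. It differed by 12.27 (SE 0.38, adjusted p = 4.5e-07), and Glyma.08G235300-1, the next locus of this family, by 10.80 (SE 0.28). In contrast to the LEA transcript, which stood at 55949 and 46841 at DR1, this Kunitz transcript stood at 470 and 274 there.

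Glutathione S-transferases of the tau class, which couple glutathione to toxic or oxidized compounds, supplied 3 of the 10 largest rises from a single run of loci. Glyma.07G139800-1, matched by the study to Arabidopsis GSTU8, was at 129 and 165 at WT1 and at 285400 and 242143 at DR2, a difference of 10.82 (SE 0.25, adjusted p = 4.4e-07). Glyma.07G139900-1 and Glyma.07G139700-1, with the same match, differed by 10.68 and 10.60. Whether the probes of these adjacent copies read each other's RNA was not tested, so the 3 values may not be separate measurements. Glyma.12G149100-1, a NAC transcription factor matched to RD26, rose from 145 and 104 to 180854 and 190767, by 10.57 (SE 1.18, adjusted p = 9.9e-05). The other 3 of the 10, Glyma.09G185500-1, Glyma.10G236000-1 and Glyma.17G128000-1, have no annotation in the sources used here and differed by 12.07, 11.16 and 10.70. Their WT2 arrays were up to 8.15 apart on the log2 scale, and their SE of 1.39 to 2.05 fell to between 0.29 and 0.40 in the fit of WT1 and DR2 alone.

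Among the transcripts not above background on either WT1 array, the largest bounds were at least 8660-fold for Glyma.15G206800-1, at least 7310-fold for Glyma.18G231500-1 and at least 4780-fold for Glyma.01G217600-1 (limma adjusted p = 2.5e-05, 2.1e-06 and 4.4e-07). The first of these is matched to a glycosyl hydrolase of family 18, the family of chitinases, and the others carry no annotation here. Glyma.01G217600-1 had 156680 and 130889 on the DR2 arrays, between 10.1 and 18.1 on the WT1 and WT2 arrays, and 46.9 and 45.5 on the DR1 arrays. It was therefore bright on the DR2 arrays and near the bottom of the scale on the other 6.

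The gene groups described next were formed from Pfam domain names in the study's supplementary tables. Those tables name 3634 of the transcripts tested, and 2778 of them are there because the study listed them for change between DR1 and WT1, which shares the WT1 arrays. Of the 3634, 37.9% were called higher at DR2 and 36.2% lower, and each group's count reads against those shares rather than against the shares of all transcripts. Among the other 856, which were not in the parts of those lists used here, 13% were called higher and 44.4% lower. The lists used here are incomplete, so the 856 are not a set free of that choice. Glyma.05G112000-1, for example, is among them and lay 5.77 above WT1 at DR1 on the log2 scale. The ribosomal proteins (14 of 20) and the enzymes of tetrapyrrole synthesis (4 of 5) belong mostly to these 856. At DR1 the medians of these groups against WT1 were -0.15 and -2.54. The ribosomal count reads against the shares of the 856, but the tetrapyrrole transcripts had already fallen at DR1 and are no unselected set. The counts describe the annotated transcripts and are not independent evidence of direction. Arabidopsis matches came from the study's lists of transcripts that changed over 4-fold at DR2 against DR1, which share the DR2 arrays. Most transcripts taken from the study's text are on those lists too. The direction of matched or text-named transcripts is therefore not independent evidence either.

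**Figure D2:**
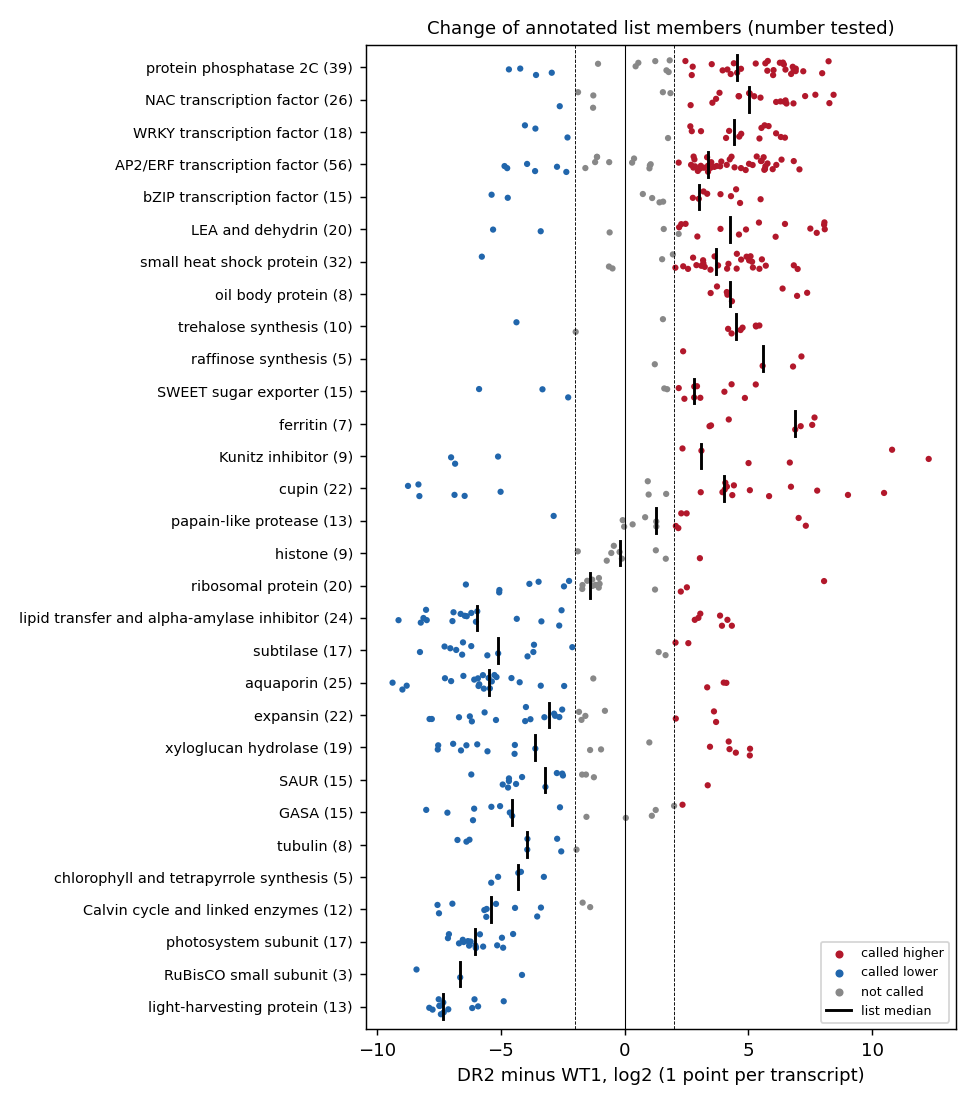
Difference between DR2 and WT1 on the log2 scale for each tested member of 30 annotated gene groups, with the number tested in brackets, black bars at group medians and dashed lines at 4-fold. Red, blue and grey points are transcripts called higher, called lower and not called, and the light-harvesting proteins, with 13 of 13 lower, lie opposite the protein phosphatases 2C, with 28 of 39 higher.

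Transcripts for making and breaking down abscisic acid were both higher at DR2. Those named here are in the study's text as transcripts that rose at DR1 and rose further at DR2. Their direction follows from that choice and is not independent evidence. Glyma.08G176300-1, matched to NCED3, the enzyme that cleaves carotenoids in the committed step of abscisic acid synthesis, was at 578 and 797 at WT1 and at 243090 and 233507 at DR2. The difference was 8.46 (SE 1.39, adjusted p = 0.00083), with an SE of 0.28 in the fit of WT1 and DR2 alone. Of the 2 dioxygenases with a Pfam name 1 was called higher, Glyma.08G255400-1, matched to NCED5, at least 40.9-fold. Glyma.11G180800-1, matched to ABA2, a dehydrogenase of a later step, was at 8.9 and 10.4 at WT1, below background, and at 97610 and 118941 at DR2, at least 3600-fold higher (adjusted p = 2.5e-06). Glyma.16G109300-1, matched to CYP707A1, which inactivates abscisic acid by hydroxylation, rose from 32.1 and 36.1 to 1433 and 2121, by 5.68 (SE 0.32, adjusted p = 2.8e-06), and was above background on 1 of the 2 WT1 arrays.

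Among families that include signalling proteins of the hormone, the phosphatases and bZIP factors were mostly higher. Some protein phosphatases 2C hold the pathway off until the receptor binds its hormone. Of 39 tested transcripts with this domain, of 27 loci, 28 were called higher, 4 lower and 7 neither, with a median of 4.54. Which of the 39 act in the pathway was not tested. The highest was Glyma.11G018000-1, at 59.7 and 39.5 at WT1 and 15375 and 13882 at DR2 (8.23, SE 0.57, adjusted p = 7.4e-06). Glyma.14G162100-1, which the study relates to HAI1, one of the phosphatases of this pathway, was at 338 and 344 at WT1 and at 42019 and 60788 at DR2, a difference of 7.21 (SE 0.89, adjusted p = 0.00017). The family with the START-like fold, to which the abscisic acid receptors belong, had 0 of 6 members higher, 2 lower and 4 not called. Its median was -1.51. The lower count is near the 36.2% of all transcripts with a Pfam name. All 6 had been listed for change at DR1, and which of them are receptors was not tested. At DR1 the median of these 6 against WT1 was -4.07. Of 15 bZIP factors 9 were higher and 2 lower, and Glyma.06G022300-1 fell from 2434 and 2071 to 46.9 and 63.2 while Glyma.14G217200-1 rose from 441 and 460 to 14115 and 7378. Glyma.19G100000-1, a GRAM domain protein related to abscisic acid-responsive proteins, was higher by 6.44 (SE 0.37, adjusted p = 3.3e-06).

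Among the other transcription factor groups examined, NAC members had the highest median. Of 26 tested NAC transcripts 20 were called higher and 1 lower, with a median of 5.04. Besides the RD26-like transcript above, Glyma.06G248900-1 with the same match was at 473 and 333 at WT1 and at 120022 and 124107 at DR2 (8.27, SE 0.86, adjusted p = 6.4e-05). Glyma.13G279900-1, matched to ANAC055, differed by 8.44 (SE 1.08, adjusted p = 0.00021). AP2/ERF factors, which include the ethylene response factors and the DREB proteins of the drought response, had 40 of 56 higher and 6 lower. WRKY factors, best known from defence, had 14 of 18 higher and 3 lower. Families outside the groups were less one-sided or lower. MYB-domain transcripts were higher in 29 of 57 and lower in 21 (median 2.05), and HLH-domain transcripts higher in 6 of 35 and lower in 16 (median -1.67).

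Named factors showed how far single members of these families differed between arrays. Glyma.10G007000-1, matched to ERF1, was at least 346-fold higher, with 11730 and 9140 at DR2. Glyma.20G155100-1, matched to DREB1A, was at least 43.7-fold higher, but its DR2 arrays stood at 2577 and 665. Glyma.06G061900-1, matched to WRKY40, was at least 50.4-fold higher and Glyma.04G042300-1, matched to MYB73, at least 340-fold higher (limma adjusted p = 7.4e-06 and 7.3e-07). The WRKY transcript Glyma.18G213200-1 took the other direction, from 5324 and 3031 to 268 and 229. Of 7 heat shock factors, which switch on chaperone genes, 4 were called higher and 0 lower.

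Proteins that protect cells from drying were mostly higher. Of 20 LEA and dehydrin transcripts 15 were called higher and 2 lower, with a median of 4.24, and the dehydrins, LEA proteins that coat membranes, were higher in 2 of 2. Glyma.05G112000-1 (LEA_1) was at 229 and 166 at WT1 and at 51823 and 34243 at DR2, and Glyma.U018200-1, with an SMP domain and a match to RAB28, went from 35.2 and 10.8 to 5723 and 4765. Their differences were 7.76 (SE 1.43, adjusted p = 0.0016) and 8.07 (SE 0.61, adjusted p = 1.1e-05). The second was above background on 1 of the 2 WT1 arrays, so its difference rests in part on a value at background. Both lower members, Glyma.02G197600-1 at -5.31 and Glyma.10G079900-1 at -3.38, belong to the LEA_2 domain, in which 6 of 11 were higher.

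Small heat shock proteins, chaperones that hold unfolding proteins in solution, had 27 of 32 transcripts higher and 1 lower, with a median of 3.70. Their DR1 level was a median of 3.29 above WT1. Glyma.08G069000-1 was at 44.5 and 41.3 at WT1 and at 2818 and 1417 at DR2, while Glyma.15G106700-1 went from 14770 and 12224 down to 177 and 348. These differed by 5.54 (SE 0.59, adjusted p = 7.7e-05) and -5.76 (SE 0.34, adjusted p = 3.8e-06). All 8 oil body transcripts were called higher, with a median of 4.24, and the 6 oleosins among them are bounded only. Of 3 HSP70 chaperones 2 were higher and 0 lower, and Glyma.01G238600-1 of this family, higher by 3.18 against WT1, was higher by 0.92 against WT2 on the same slide. The caleosin Glyma.19G247500-1 was bright at the start, at 5727 and 5416, and reached 102825 and 91962.

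Genes for soluble sugars that accumulate in drying tissue rose in most members. Of 10 transcripts for trehalose synthesis 7 were higher and 1 lower (median 4.50), and of 5 for raffinose synthesis 4 were higher and 0 lower (median 5.57). Glyma.19G217700-1, with the raffinose synthase domain, was at 677 and 783 at WT1 and at 95381 and 110275 at DR2, a difference of 7.14 (SE 1.07, adjusted p = 0.00052). The trehalose phosphate synthase-domain transcript Glyma.17G067800-1 went from 1086 and 805 to 44642 and 36901. SWEET proteins, which let sugars out of cells, had 10 of 15 higher and 3 lower, and 8 of the calls are bounds. Glyma.13G169700-2 and Glyma.19G009900-2 of this family, higher by 2.41 and 2.19 against WT1, were higher by 1.75 and 1.70 against WT2 on the same slide, under the 4-fold limit.

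Iron, redox and defence proteins formed a mixed group. All 7 ferritin transcripts, of 4 loci, for the shells that store iron in plastids, were higher, with a median of 6.89. Glyma.07G155200-1 went from 850 and 1416 to 125026 and 134794 (6.89, SE 0.39, adjusted p = 3.1e-06). Of 7 glutathione S-transferases with a Pfam name 5 were higher and 2 lower. Peroxidases were called lower in 10 of 17 and higher in 5, and Glyma.14G177200-1, matched to the ascorbate peroxidase APX4, fell from 5035 and 6910 to 59.0 and 50.6. Osmotin, a thaumatin-type defence protein, had a transcript in Glyma.11G025600-1, which was at least 199-fold higher, with 9597 and 3702 on the DR2 arrays. Other thaumatins were divided, with 3 of 8 higher and 2 lower in all.

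Storage-type and inhibitor families held large rises and large falls. Kunitz inhibitors were higher in 6 of 9 transcripts and lower in 3, from 12.27 for Glyma.08G235400-1 down to -7.00 for Glyma.01G096200-1, which went from 24553 and 22089 to 198 and 167. Cupins, the fold of seed storage globulins and of germin-like wall proteins, were higher in 13 of 22 and lower in 6. Glyma.U020300-1 rose from 31.8 and 24.0 to 62535 and 24637, by 10.47 (SE 0.42, adjusted p = 7.4e-07). Glyma.16G007700-1 fell from 20153 and 27204 to 50.1 and 107 (-8.32, SE 0.35, adjusted p = 9.3e-07). The cupin sum over all 22 transcripts was 82550 and 109191 at WT1 and 135016 and 74253 at DR2, ranges that overlap. Papain-like proteases, which act in leaf ageing, were higher in 6 of 13 and lower in 1, whereas subtilases were lower in 13 of 17 and higher in 2.

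**Figure D3:**
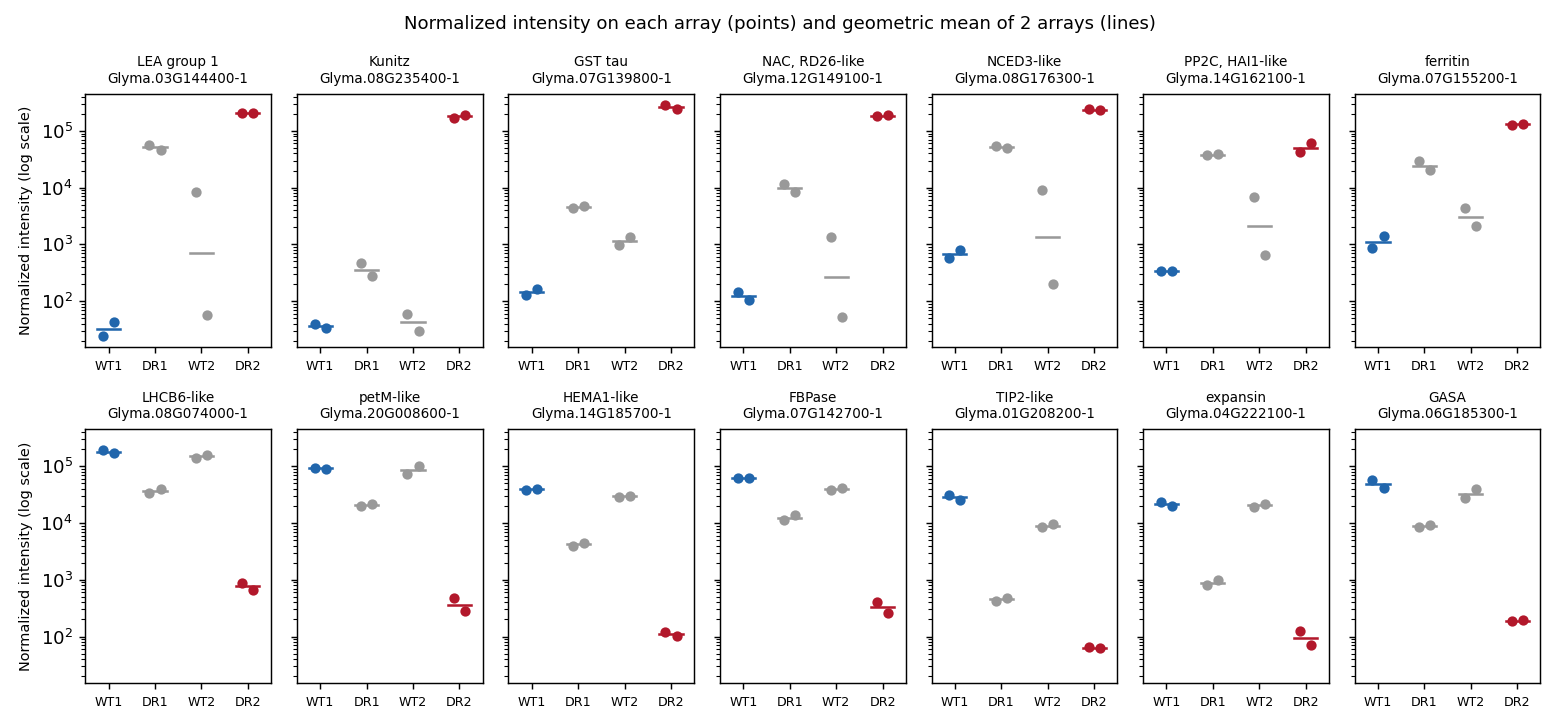
Normalized intensity, on a log axis, of 14 named transcripts on each array (points) and the geometric mean of the 2 arrays (lines) at WT1 (blue), DR1, WT2 (grey) and DR2 (red). In the upper row both DR2 arrays lie above both WT1 arrays, in the lower row below them, and the WT2 arrays of the LEA transcript stand at 8535 and 57.3.

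The largest falls came from transcripts that were bright in watered leaves, as the way of choosing them required. They had to be detected on both DR2 arrays, where the lowest values measured well above background were 40.2 and 51. Only a bright WT1 value allows so large a fall. Glyma.02G282300-1, without annotation here, went from 44845 and 31728 at WT1 to 60.9 and 58.9 at DR2, by -9.30 (SE 0.23, adjusted p = 4.4e-07). Glyma.09G231900-1, for an inhibitor of pectin methylesterase or invertase, enzymes of the wall and of sucrose cleavage, went from 70571 and 54266 to 88.4 and 121 (-9.23, SE 0.27). The aquaporin Glyma.01G208200-1, matched to the vacuolar water channel TIP2, went from 30815 and 25955 to 64.2 and 63.4 (-8.79, SE 0.21). For each of these both WT1 arrays lay far above both DR2 arrays.

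Of the other 7 largest falls, 4 belong to proteins of the plastid or of the sulfurtransferase fold. Glyma.14G185700-1, matched to HEMA1, the glutamyl-tRNA reductase that opens tetrapyrrole and chlorophyll synthesis, fell from 38844 and 39507 to 120 and 101 (-8.48, SE 0.21, adjusted p = 4.4e-07). Glyma.12G052500-1, matched to GUN4, a porphyrin-binding regulator of the magnesium step of that pathway, fell by 8.25. The rhodanese-domain transcripts Glyma.06G132600-1 and Glyma.04G232400-1 fell by 8.35 and 8.22. The last 3 were the cupins Glyma.16G007700-1 and Glyma.07G038500-1 and the unannotated Glyma.05G011200-1. The largest bounds among transcripts not above background at DR2 were at least 460-fold for the lipid transfer-like Glyma.01G078800-1, at least 246-fold for the RuBisCO small subunit Glyma.08G365300-1 and at least 245-fold for Glyma.01G002000-1, with a zinc finger of the FLZ type.

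Nuclear genes of photosynthesis were called lower without exception in 4 of the 5 groups. Light-harvesting proteins, which bind chlorophyll and feed the photosystems, were lower in 13 of 13 transcripts with a median of -7.32, between -4.88 and -7.88. Glyma.08G074000-1 and Glyma.05G119000-1, both matched to LHCB6, were at 190572 and 171073, and at 153276 and 125117, at WT1. At DR2 they were at 870 and 673, and at 696 and 596. Glyma.02G305400-1, matched to LHCB2, was brighter still, at 247871 and 209834, and fell to 2843 and 3992 (-6.08, SE 0.25, adjusted p = 8.2e-07). At DR1 it stood at -0.91 against WT1.

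The photosystem subunits were lower in 17 of 17 transcripts, with a median of -6.02, and 3 of these calls are bounds. Glyma.20G144700-1, with the PsaD domain of the ferredoxin side of photosystem I, fell from 159156 and 185514 to 1812 and 1910 (-6.53, SE 0.20, adjusted p = 4.6e-07). In the PsbP family of the oxygen-evolving side, Glyma.19G227400-1 was at least 52.3-fold lower. Glyma.03G230300-1 of this family went from 2823 and 3287 to 22.9 and 38.5 (-6.68, SE 0.28), and was above background on 1 of the 2 DR2 arrays. Between the photosystems, the cytochrome b6f subunits Glyma.07G163600-1 and Glyma.20G008600-1 fell by 8.10 and 7.99, and Glyma.13G204800-2, matched to the ATP synthase subunit ATPC1, was at least 106-fold lower. Glyma.07G019400-1, a thylakoid membrane protein, fell by 6.11.

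Carbon fixation and pigment synthesis went the same way. RuBisCO small subunits were lower in 3 of 3 transcripts, and enzymes of the Calvin cycle and linked reactions in 10 of 12 with 0 higher. The fructose-bisphosphatase Glyma.07G142700-1 fell from 61645 and 61306 to 411 and 262 (-7.55, SE 0.26, adjusted p = 5.1e-07), and Glyma.16G150200-1, matched to the plastid dehydrogenase GAPA, fell by 6.95. Transcripts for porphobilinogen deaminase and uroporphyrinogen decarboxylase, enzymes of tetrapyrrole synthesis, were lower in 5 of 5, with Glyma.12G021100-1 going from 28583 and 28911 to 635 and 748. Glyma.14G150600-1, matched to chlorophyllide a oxygenase, which makes chlorophyll b, fell by 6.07 (SE 0.21, adjusted p = 5.1e-07).

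Transcripts of the plastid genome itself had a smaller median fall than the nuclear photosynthesis groups, but the sets are unlike. The plastid set was not chosen by change. In the nuclear groups, at least 12 of 13 light-harvesting and at least 14 of 17 photosystem transcripts had been listed by the study for change at DR1. Of 83 tested plastid-encoded transcripts 36 were called lower (43.4%, against 15.6% of all transcripts tested) and 0 higher, with a median of -1.70. The largest fall was that of psbM, a small subunit of photosystem II, from 56806 and 44372 to 2223 and 1980 (-4.58, SE 0.23). The large subunit of RuBisCO, rbcL, went from 175347 and 188047 to 27125 and 32719 (-2.61). Of the 3 nuclear small subunit transcripts in the group, Glyma.18G296900-1 fell by 4.14 and 2 calls are bounds. Their summed intensity at WT1 was only 12372 and 16085. The study describes brighter small subunit transcripts that are not among them, so the subunits were not compared as wholes. The transcript of psbA, the D1 protein of photosystem II, which turns over fast in light, was at 127921 and 92843 at WT1 and at 207856 and 189361 at DR2, and did not pass 4-fold (0.86, SE 0.23, adjusted p = 0.011). Mitochondrial transcripts lay on the other side of 0, with a median of 0.87 over 58 tested. Of these, 5 were called higher (8.62%, below the 12.7% of all transcripts tested) and 0 lower. All 58 were brighter on DR2 replicate 1 than on DR2 replicate 2. Without DR2 replicate 1 the median was 0.42 with 1 called higher, and without DR2 replicate 2 it was 1.33 with 11. Without WT1 replicate 1, 2 were called higher. Of the plastid transcripts, 72 of 83 were also brighter on DR2 replicate 1, and 42 were called lower without that array and 31 without the other. The largest mitochondrial difference was that of atp9, a rotor subunit of the ATP synthase, from 3103 and 3431 to 116143 and 28405 (4.14, SE 0.56). Its DR2 arrays differed by more than 4-fold.

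**Figure D4:**
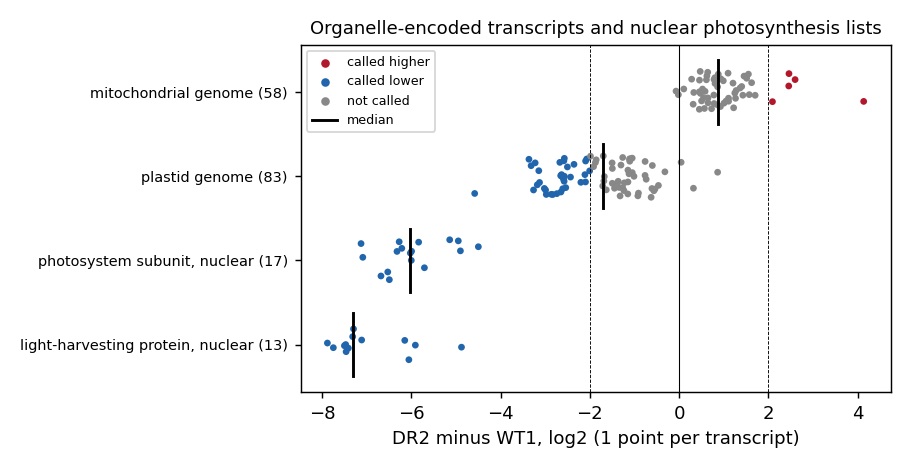
Difference between DR2 and WT1 on the log2 scale for transcripts of the mitochondrial genome (58) and the plastid genome (83) and for the nuclear photosystem subunits (17) and light-harvesting proteins (13), with black bars at medians and dashed lines at 4-fold. The medians run from 0.87 through -1.70 and -6.02 to -7.32. The nuclear groups hold mostly transcripts that the study listed for change at DR1, so these are medians of unlike sets.

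Water channels and wall-loosening proteins, which take part in cell expansion, were mostly lower. Aquaporins were lower in 21 of 25 transcripts and higher in 3, with a median of -5.49. Glyma.08G015300-1 fell from 21866 and 24238 to 213 and 152 (-7.00, SE 0.28, adjusted p = 6.9e-07), while Glyma.11G097700-1 and Glyma.12G023600-1 were higher by 4.11 and 4.00. Expansins, which loosen cell walls, were lower in 15 of 22 and higher in 3. Glyma.04G222100-1, matched to EXPA8, fell from 23741 and 20246 to 124 and 71.1 (-7.87, SE 0.29, adjusted p = 5.8e-07). Enzymes that cut and rejoin xyloglucan were lower in 10 of 19 and higher in 6, and tubulins, the subunits of microtubules, in 7 of 8 and 0. Glyma.04G023900-1, matched to TUB1, fell by 6.74 (SE 0.25). Cellulose synthases and cyclins each had 1 of 3 higher and 1 lower.

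Growth-linked hormone families followed the same direction in most members. SAUR transcripts, small proteins raised by auxin, were lower in 11 of 15 and higher in 1, and Glyma.02G049200-1 of this family was at least 7.58-fold lower. GASA peptides, raised by gibberellin, were lower in 9 of 15 and higher in 1, with a median of -4.54. Glyma.06G185300-1 fell from 57457 and 41124 to 185 and 193 (-8.00, SE 0.26), and Glyma.09G238300-1, matched to GASA4, fell by 5.38. Glyma.11G003200-1, matched to GA2OX8, an enzyme that inactivates gibberellin, was also lower, from 1984 and 4425 to 63.8 and 64.1 (-5.53, SE 0.40, adjusted p = 9e-06). The AUX/IAA repressors split, with Glyma.10G180100-1, matched to IAA14, at -6.39 and Glyma.07G015200-1, matched to IAA26, at 5.10, and of the 3 tested 2 were lower and 1 higher.

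Lipid transfer and alpha-amylase inhibitor proteins, small secreted proteins of the leaf surface and wall, split by domain. The 17 tested transcripts with the Hydrophob_seed domain were all called lower, with a median of -6.45, and the 7 with the Tryp_alpha_amyl domain were all called higher, with a median of 3.85. LTP_2 proteins, which were not in the group, were higher in 12 of 16 and lower in 2 (median 3.84). The summed intensity of the 24 transcripts was 312800 and 394189 at WT1 and 613486 and 623904 at DR2, higher on both DR2 arrays. Glyma.06G067000-1 fell from 19598 and 33441 to 92.3 and 79.5 (-8.22, SE 0.31). Histones, whose transcripts follow DNA replication, were called in 1 of 9, higher, with a median of -0.20, against a DR1 median of -2.17. Ribosomal proteins were lower in 7 of 20 and higher in 3, with a median of -1.41, and against WT2 on the same slide 15 of the 20 were called lower. Glyma.18G050600-1, with the ribosomal L16 domain, was an exception among them, at 112 and 208 at WT1 and at 53912 and 30308 at DR2 (8.05, SE 0.36, adjusted p = 1.2e-06).

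Opposite calls at 1 locus were few. Of 5081 loci with more than 1 tested transcript, 1754 had at least 1 called. All tested transcripts were higher at 410 loci and lower at 417, 910 had called and uncalled transcripts together, and 17 had transcripts called in opposite directions. At Glyma.18G243100, transcript Glyma.18G243100-2 went from 4099 and 4057 to 193 and 104, while Glyma.18G243100-1 went from 139 and 154 to 1149 and 937. The differences were -4.85 (SE 0.31, adjusted p = 5.3e-06) and 2.82 (SE 0.26, adjusted p = 3e-05). At Glyma.13G372900 the 2 directions were -4.33 for Glyma.13G372900-1 and 2.37 for Glyma.13G372900-4, and neither is a bound.

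**Figure D5:**
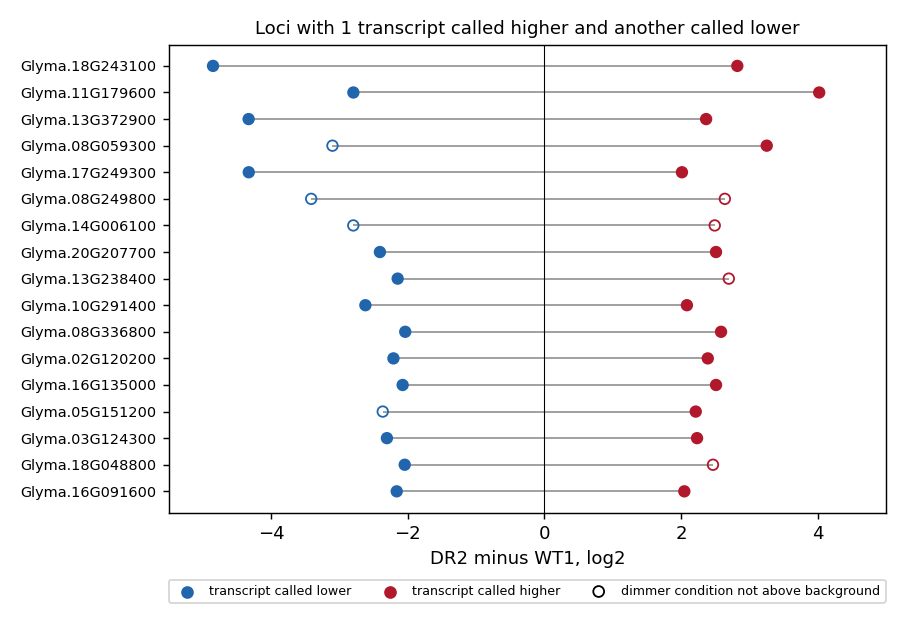
The 17 loci with 1 transcript called lower (blue) and another called higher (red) at DR2 than at WT1, as differences on the log2 scale joined by a grey line. Open circles mark transcripts whose dimmer condition was at background on both arrays, and the widest pair is that of Glyma.18G243100, at -4.85 and 2.82.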

How the data were processed

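RNA of 8 leaf samples, 2 for each of WT1, DR1, WT2 and DR2, was hybridised to single-colour arrays, and groups follow the sample labels. Per the file headers, the scanner intensities came from the Feature Extraction software, version 11.5.1.1. The authors also deposited a table of normalized intensities for 60386 transcripts, which they had background-corrected and normalized with limma, with settings not given in the sources used here, and it holds 0 columns of other samples. Here log2 of these intensities was fitted with limma 3.58.1 in R 4.3.3, as 4 condition means over the 8 arrays, by lmFit, eBayes and Benjamini-Hochberg adjustment over 54851 transcripts, 4854 of them unique-exon entries. All adjusted p values are from this fit unless another is named. Probes well above background were taken from the scanner files. On simulated arrays for DR2 against WT1, with 200 of 54851 transcripts changed by 3 on the log2 scale, 170 were recovered and 3 others called. Correlations of the deviations of same-numbered replicates ran from -0.3 to 0.298, so replicate number was no term in the main fit. Same-numbered pairs served only to count and choose transcripts over 4-fold in both pairs, and in alternatives to the main fit.

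Named transcripts are the 10 largest rises and falls over 4-fold in both replicate pairs and detected in both conditions, the 3 largest bounds in each direction, 31 transcripts of the study's text and up to 3 per gene group, beside exceptions chosen after their values were seen, such as the extremes of a group, organelle genes and opposite loci. Members, groups and rules were chosen with earlier results of these data known. Of 43 groups 41 had a tested member, and annotations came from parts of the study's tables. No promoter, protein or probe sequence was used here. The authors' fold changes and p values, in the study's tables, were not used as values. The lists that supplied the annotations had, however, been selected by the authors' fold changes. Most Pfam names came with lists of change at DR1 against WT1, and Arabidopsis matches with lists of change at DR2 against DR1.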

Additional observations from a re-analysis of the deposited data

How the results depend on the processing

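The 145 named transcripts kept their direction under each of the 19 alternatives that gave them a value. The calls lost were 4 against WT2 on the same slide, 7 in a test against a 4-fold threshold (treat), 1 with the scanner signals and a background offset of 50, and 1 with 50 added to the deposited values, and the cause was not tested. The 6975 higher and 8552 lower transcripts became 4378 and 5289 with the scanner signals at an offset of 50, which shrinks differences of dim transcripts. Adding 50 to the table left 5687 lower, and keeping only transcripts well above background on all WT1 and DR2 arrays left 4979 lower of the 40528 then tested. The treat test called 3363 and 4643, and a 2-fold limit 14348 and 15729. Leaving out 1 array at a time gave 6515 to 7705 higher and 8197 to 9272 lower, and a replicate block gave 6976 and 8552. The 41 groups gave 82 counts of higher or lower members. Requiring signals well above background on all WT1 and DR2 arrays moved 29 of the 78 counts then left by more than 1.5 times, treat 15 of 82, a 2-fold limit 11, each offset of 50 moved 8, and leaving out 1 array 1 to 4. The other alternatives moved 0 to 6, apart from WT2 on the same slide, which moved 9. There the higher calls were 2 in place of 5 among peroxidases, 1 in place of 3 among thaumatins, 0 in place of 2 among subtilases, 1 in place of 2 among HSP70 and 0 in place of 1 among GASA. The lower calls were 15 in place of 7 among ribosomal proteins, 2 in place of 1 for trehalose, 0 in place of 1 among papain-like proteases and 1 in place of 0 among histones. The share of calls that were higher, 44.9%, ranged from 42% to 49.2%. The limits are the slide, which differs between WT1 and DR2, the age of the DR2 leaves, 2 arrays per condition, and signals near background, which only bound 1730 rises and 2593 falls.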

Other observations

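Pfam families outside the groups of the report were ranked by their median difference after the values were seen, among those with at least 8 tested transcripts, and carry no test. Those given here were picked from the ranking and are not its unbroken ends. Left out, for example, are GDP_Man_Dehyd (8 of 10 higher, median 4.68) and Terpene_synth_C (7 of 8 lower, median -6.26). The cysteine-rich CYSTM family, small membrane-anchored stress proteins, was called higher in 10 of 10 transcripts with a median of 8.42. Transcripts with the senescence regulator domain were higher in 7 of 8 (median 6.31), those with the Dev_Cell_Death domain in 8 of 9 (3.62) and aldehyde dehydrogenases, which clear reactive aldehydes, in 8 of 11 (4.50). At the other end, fasciclin-domain proteins of the cell surface were lower in 8 of 8 (-6.94), rhodanese-domain proteins in 13 of 13 (-6.46), serine carboxypeptidases (Peptidase_S10) in 13 of 13 (-4.44) and matrix metalloprotease-type peptidases (Peptidase_M10) in 12 of 13 (-5.78). Proteins with the CCT domain, which is found in regulators of flowering time and the clock, were lower in 11 of 13 (-6.14), and cyclophilin-type isomerases (Pro_isomerase) in 8 of 8 (-5.17). Among protein kinases, transcripts of the Pkinase domain were higher in 36 of 108 and lower in 43 (median -0.68), and those of the Pkinase_Tyr domain were higher in 10 of 55 and lower in 28 (median -2.03). Most of these transcripts carry a name because the study had listed them for change at DR1, and over all transcripts with a Pfam name 37.9% were higher at DR2 and 36.2% lower.

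The called transcripts lay on all 20 chromosomes. The share called higher ran from 11.3% on chromosome 10 to 14.6% on chromosome 16, and the share called lower from 13.5% on chromosome 20 to 17.2% on chromosome 18.

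Among the kinesins, motor proteins that move along microtubules, 4 of 10 transcripts were lower and 3 higher, and the highest, Glyma.05G149700-1, was at 15.2 and 18.5 at WT1, below background, and at 13973 and 11221 at DR2, at least 418-fold higher (limma adjusted p = 1.2e-06).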
